A study of Gallus gallus with 16 samples.

Results

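The deposited peak lists of H3K27ac in embryonic chick lens fiber cells at 1% and at 21% oxygen hold 61245 unique intervals, of 108520 intervals listed for H3K27ac and H3K4me3 together. Members were the lines of the table labelled H3K27ac normoxia or H3K27ac hypoxia, with each interval counted 1 time per list. They comprise 15511 normoxia and 45734 hypoxia peaks, and they name 12692 of the table's 14100 genes. Covered length, the summed width in base pairs (bp) of the peaks that the table assigns to a gene, was compared between the lists gene by gene. It was split by genomic class into promoter (within 1 kb of a transcription start site, TSS), intron and distal intergenic sequence. The classes left over (promoter at more than 1 kb, exon, UTR and downstream) are called the other classes and enter the sum over all classes.

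Both groups are whole lenses of White Leghorn chick embryos at embryonic day 13, cultured in serum-supplemented Medium 199. The normoxia group was kept at 21% oxygen and the hypoxia group at 1% oxygen, in both cases for 2 h per the treatment labels. The extraction text gives 0 h or 2 h of hypoxia as the dissection times, and the labels do not settle whether the normoxia lenses also spent 2 h in culture. Each condition has 2 H3K27ac libraries of 10 to 15 pooled lenses, labelled as lens fiber cells and profiled by CUT&RUN, in which an antibody brings a nuclease to a chromatin mark and the DNA cut free is sequenced. A library is therefore an average over many embryos.

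H3K27ac is acetylation of lysine 27 on histone H3, found on nucleosomes at active promoters and active enhancers. It is written by the acetyltransferases p300 and CBP, removed by histone deacetylases and read by bromodomain proteins. Lens fiber cells differentiate from the epithelium under FGF, BMP and Notch signals, switch on crystallin, gap junction and beaded filament genes, and later degrade their organelles. The lens has no blood supply, and its core is naturally low in oxygen. At low oxygen the prolyl hydroxylases of the EGLN family stop marking HIF alpha subunits for destruction by VHL, and HIF then binds enhancers of its target genes.

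The table gives intervals only. It holds no signal, score or value per library, and each condition has 1 list. The read depth is unknown, no difference can be checked against replicates, and no p-value was computed, because peaks and genes are not replicates of a condition. The hypoxia list covered 36.9 Mb against 11.0 Mb for normoxia, a ratio of 3.34 (1.74 on the log2 scale), and changes are read against that shift. H3K4me3, profiled at the same 2 oxygen levels, covered 42.4 Mb against 38.6 Mb, a ratio of 1.10. Depth, peak calling and a change of the mark cannot be told apart as sources of the longer hypoxia list. In these bulk samples, fewer cells that carry a mark and less mark per cell also cannot be told apart.

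The longer hypoxia list was not an even scaling of the normoxia list over the genome. Covered length in promoter peaks was 3.23 Mb in normoxia and 9.15 Mb in hypoxia, a ratio of 2.84. Intron peaks covered 2.91 Mb and 9.93 Mb, a ratio of 3.41, and distal intergenic peaks 2.08 Mb and 7.29 Mb, a ratio of 3.50. Promoters thus held 29.2% of the covered length in normoxia and 24.8% in hypoxia, while the intron share was 26.3% and 26.9% and the distal share 18.9% and 19.8%. The way in which length was added also differed by class. Promoter peaks were 1.92 times as many in hypoxia, and their median width was 603 bp (normoxia) and 828 bp (hypoxia). Intron peaks were 3.19 times as many with the same median width of 498 bp in both lists. Distal peaks were 3.68 times as many with medians of 492 bp and 462 bp. Scaled to equal list length, the promoter ratio was below 1 (0.848), and the intron and distal ratios were 1.02 and 1.05.

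**Figure D1:**
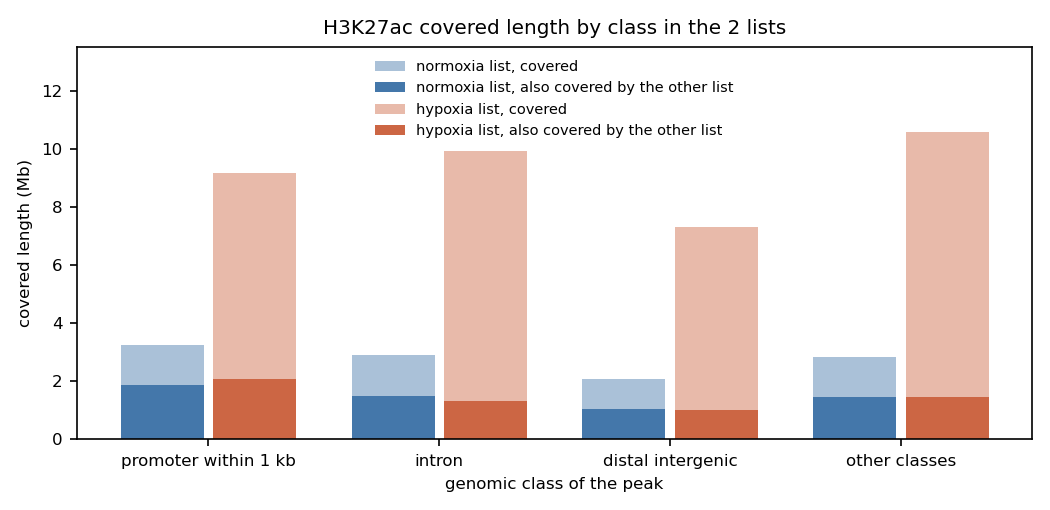
Covered length in Mb (vertical axis, from 0) of the normoxia and hypoxia H3K27ac lists in each genomic class; the dark part of a bar is the length also covered by a peak of any class in the other list. The dark parts are of like size in the 2 lists within each class, and the pale parts are larger in hypoxia in every class.

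Base by base, 5.82 Mb lay in both lists. This was 52.7% of the normoxia length and 15.7% of the hypoxia length. The normoxia promoter length was under hypoxia peaks for 57.6%, the intron length for 50.6% and the distal length for 49.6%. In the other direction, 22.6% of hypoxia promoter length was under normoxia peaks, against 13.1% in introns and 13.7% in distal sequence. Shared sequence mostly kept its class. Of the normoxia promoter length, 55.4% was under hypoxia promoter peaks and 42.4% under no hypoxia peak. Of the normoxia intron length, 42.5% was under hypoxia intron peaks and 7.93% under hypoxia peaks of the other classes. The last value matters for single genes, because a wide peak carries 1 class: intron length can pass to another class when neighbouring peaks are listed as 1 wider peak.

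H3K4me3, a promoter mark, covered 82.3% of normoxia and 78.0% of hypoxia H3K27ac promoter length. In introns it covered 22.4% and 19.4%, and in distal sequence 28.3% and 21.1%. Distal hypoxia peaks lay farther from genes, at a median of 33.9 kb from the TSS against 28.7 kb for normoxia. Intron peaks were at medians of 21.0 kb and 20.3 kb. Of the intron peaks, 20.5% in normoxia and 20.3% in hypoxia lay upstream of the TSS of the gene they are assigned to. An intron peak therefore need not lie in an intron of the gene it is named for.

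Per gene, both lists held promoter H3K27ac at 3209 genes, hypoxia alone at 3925 and normoxia alone at 704. Both held intron H3K27ac at 1908 genes, hypoxia alone at 3193 and normoxia alone at 334. For distal peaks these numbers were 1521, 2798 and 235. In genes with the class in both lists, median covered length at promoters was 717 bp (normoxia) and 1366 bp (hypoxia), with a median log2 ratio of 0.90. In introns the medians were 778 bp and 2293.5 bp, with a median log2 ratio of 1.35, and in distal sequence 752 bp and 2058 bp, with 1.28. All 3 medians are positive, and all 3 turn negative once the list ratio is taken off, at -0.84, -0.39 and -0.46. They leave out genes with the class in hypoxia only, whose length the list ratio includes, so they do not describe all genes. With hypoxia-only genes counted as above, 61.3% of genes at promoters, 72.3% in introns and 73.0% in distal sequence were above the list ratio. Genes already carrying promoter H3K27ac in both lists had intron peaks in 23.6% of cases in normoxia and 44.7% in hypoxia, and distal peaks in 12.8% and 28.3%. Of these 3209 genes, 780 had intron peaks in hypoxia only and 103 in normoxia only. For all 12692 genes these numbers were 3193 and 334, and for the 4854 genes without a promoter peak in either list 1335 and 132. More intron peaks in hypoxia were thus not particular to genes with promoter H3K27ac.

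**Figure D2:**
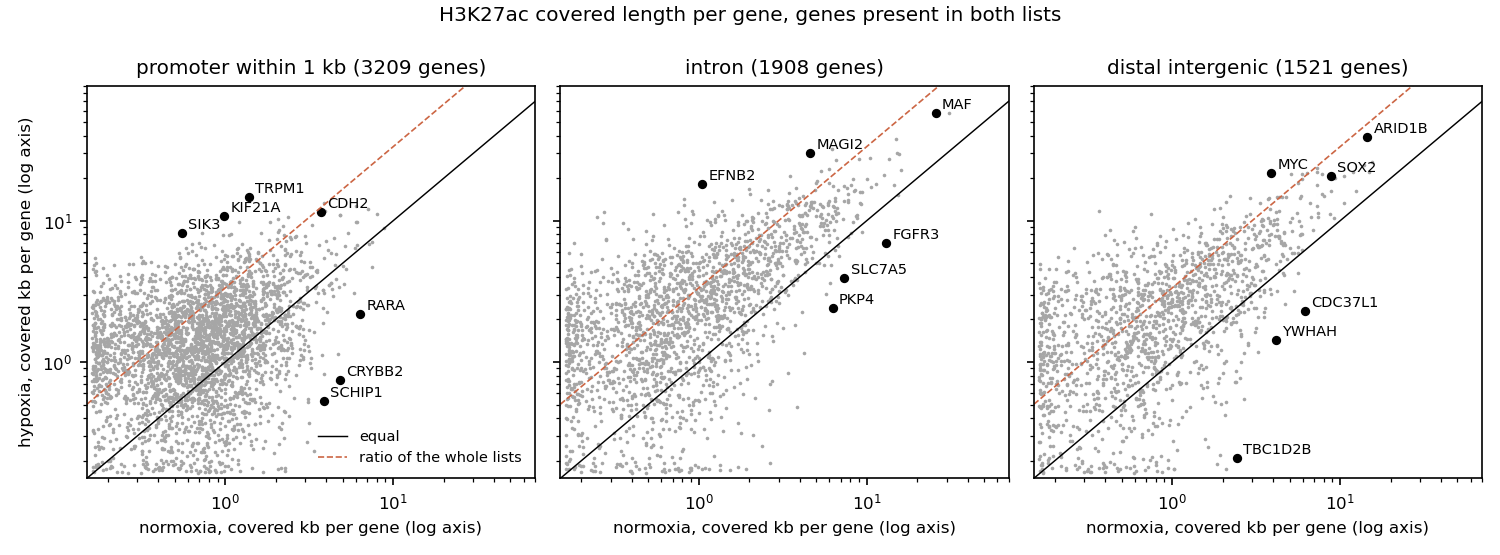
Covered kb per gene in normoxia (horizontal, log axis) and hypoxia (vertical, log axis) for genes with peaks of the class in both lists; 1 point is 1 gene, the solid line is equality and the dashed line the ratio of the whole lists, 3.34. Most genes lie above equality in each class, and more points lie far below it at promoters than in introns or distal sequence.

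A gene was called higher in hypoxia where its covered length was at least 2-fold and at least 500 bp larger, and lower where it was smaller by the same amounts. These calls are thresholds of size, not tests. Promoters were called higher at 4167 of 7838 genes (53.2%) and lower at 556 (7.09%). Introns were called higher at 3044 of 5435 genes (56.0%) and lower at 178 (3.28%). Distal sequence was called higher at 2557 of 4554 genes (56.1%) and lower at 138 (3.03%). Over all classes 8500 of 12692 genes (67.0%) were called higher and 339 (2.67%) lower. The share of genes whose ratio was above that of the whole lists was 61.3% at promoters, 72.3% in introns, 73.0% in distal sequence and 65.3% over all classes. Here and below, a gene with length in hypoxia only has no ratio and is counted as above. Such genes were 50.1% of all at promoters, 58.7% in introns, 61.4% in distal sequence and 41.9% over all classes, and make up most of those above. The shares called and the shares above the list ratio are the background against which groups of genes are read below. The list ratio of 3.34 is over all classes. The ratios by class were 2.84 at promoters, 3.41 in introns and 3.50 in distal sequence. A class value between 3.34 and the ratio of its own class would change sides.

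At promoters, the 9 genes described here, of the 10 with the largest differences towards hypoxia, mostly had wide hypoxia peaks over short normoxia peaks. In the 8 of them with normoxia promoter peaks, 56.9 to 100% of that normoxia length was under hypoxia peaks. TRPM1, a cation channel gene of the TRP melastatin family, had 1386 bp in normoxia and 14656 bp in hypoxia. Its widest hypoxia peak, 12153 bp on chromosome 10 (6122268 to 6134420), lay wholly under H3K4me3, which covered 12022 bp and 15090 bp of promoter there. KIF21A, a kinesin motor gene, went from 989 bp to 10826 bp. SIK3, which encodes a salt-inducible kinase, went from 554 bp to 8177 bp. The ratios of these 3 genes were 10.6, 10.9 and 14.8, above the list ratio of 3.34.

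NUDT4, a phosphohydrolase gene of inositol pyrophosphate metabolism, had 1844 bp in normoxia and a hypoxia peak of 9853 bp that contained it. TRABD covered 2371 bp and 10699 bp. The table's C9H21orf2, whose human counterpart encodes a cilium protein, covered 1204 bp and 9795 bp. Of that hypoxia peak, 62.5% was under normoxia peaks, so much of its length was listed in normoxia under another class or gene. The other classes of C9H21orf2 had 3525 bp in normoxia, all under hypoxia peaks, and none in hypoxia. CACNA2D4, an auxiliary subunit gene of voltage-gated calcium channels, was the only one of the 9 without a normoxia promoter peak and covered 9216 bp in hypoxia. Its locus was not free of the mark in normoxia, since its other classes covered 4579 bp, 86.6% of it under hypoxia peaks.

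For some of these genes the ratio over all classes lay below that of the lists. DIXDC1, a gene of Wnt signalling, covered 3901 bp and 13330 bp at its promoter, but 11081 bp and 14089 bp over all classes, a ratio of 1.27. CDH2, which encodes N-cadherin, the main classical cadherin of fiber cells, covered 3705 bp and 11564 bp at its promoters, a ratio of 3.12, just below that of the lists. Of the 9 promoters, 8 had ratios above 3.34, while over all classes 4 of the 9 genes did (KIF21A, TRABD, NUDT4 and SIK3).

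The largest promoter differences towards normoxia included the retinoic acid receptor gene RARA and the crystallin gene CRYBB2. The normoxia peak of RARA covered 6359 bp on chromosome 27 (7222735 to 7229093), and 2 hypoxia peaks covered 2181 bp, with 36.2% of the normoxia length under hypoxia peaks. Over all classes RARA had 6915 bp and 3587 bp, a ratio of 0.519. H3K4me3 at the same promoter covered 11356 bp and 11528 bp, so the promoter mark was listed at about the same length in both conditions.

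CRYBB2, which encodes a beta-crystallin, a structural protein of fiber cells, had 1 normoxia peak of 4845 bp on chromosome 15 (7282849 to 7287693). In hypoxia it kept 743 bp at the promoter and 1882 bp over all classes, a ratio of 0.388. H3K4me3 at this promoter was longer in hypoxia, at 1037 bp in normoxia and 2617 bp in hypoxia. Of the 5 genes, CRYBB2 was the one also called lower over all classes. SCHIP1, which encodes a partner of the cytoskeletal linker schwannomin, had 3878 bp and 530 bp at the promoter and 4487 bp and 2829 bp over all classes. YWHAG, a 14-3-3 adaptor gene, had 4631 bp and 734 bp at the promoter but 5404 bp and 5227 bp over all classes. KLHL25, an adaptor gene of a cullin ubiquitin ligase, had 4720 bp and 1145 bp at the promoter but 12451 bp and 24732 bp over all classes.

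**Figure D3:**
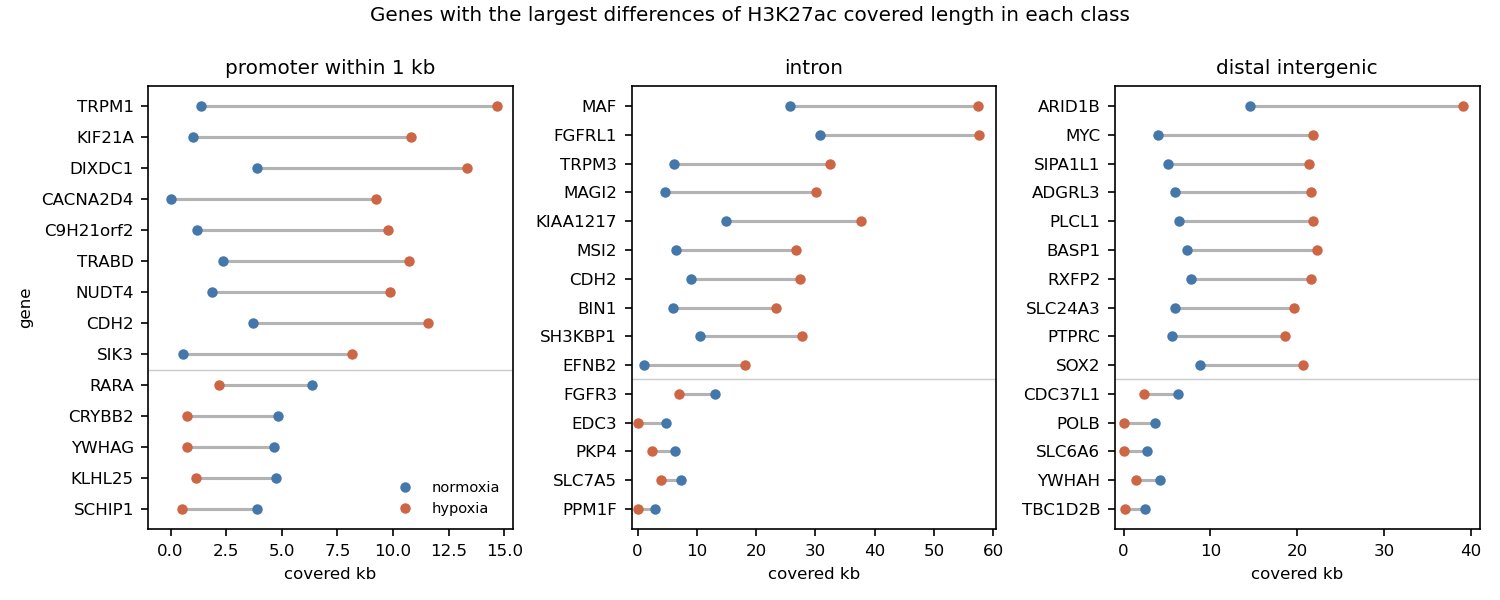
Covered kb in normoxia and hypoxia (points joined by a line) of the genes with the largest difference towards hypoxia (9 at promoters and 10 in the other classes) and, under the grey line, the 5 with the largest difference towards normoxia in each class. The largest difference towards hypoxia is 31762 bp, in intron peaks assigned to MAF. The largest towards normoxia is in intron peaks assigned to FGFR3, with 13080 bp and 6981 bp.

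In introns, the genes with the most added length had between 12 (EFNB2) and 54 (MAF) intron peaks each in hypoxia. MAF, a basic leucine zipper factor that drives crystallin genes, had 26 intron peaks over 25724 bp in normoxia and 54 over 57486 bp in hypoxia, between 5.9 kb and 228.4 kb from the TSS in hypoxia. FGFRL1, an FGF receptor relative without a kinase domain, had 30748 bp in 34 peaks and 57628 bp in 42 peaks. These 2 genes had the longest intron coverage of all in normoxia, and their ratios of 2.23 and 1.87 were below that of the lists, so relative to list length both were lower in hypoxia.

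Others of the 10 intron genes started from shorter normoxia coverage. EFNB2, which encodes an ephrin ligand of Eph receptors, had 1051 bp in 3 intron peaks and 18149 bp in 12, a ratio of 17.3. MAGI2, a junctional scaffold gene, had 4619 bp in 10 peaks and 30043 bp in 37, a ratio of 6.50. TRPM3, a channel gene related to TRPM1, had 6215 bp and 32444 bp, a ratio of 5.22. The RNA-binding protein gene MSI2 covered 6560 bp and 26769 bp, and BIN1, which encodes a membrane-bending BAR protein, 5953 bp and 23283 bp.

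CDH2 appeared again, with 13 intron peaks over 9043 bp in normoxia and 25 over 27374 bp in hypoxia, a ratio of 3.03 with 70.8% of the normoxia length under hypoxia peaks. KIAA1217 covered 14929 bp and 37676 bp, and the endocytic adaptor gene SH3KBP1 10531 bp and 27788 bp, at ratios of 2.52 and 2.64. In both lists the widest intron peaks of MAGI2 and KIAA1217 lay upstream of the TSS, so they need not lie in introns of these genes. Of the 10 intron genes, 5 had intron ratios above 3.34 (TRPM3, MAGI2, MSI2, BIN1 and EFNB2).

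Of the 5 genes with the largest intron differences towards normoxia, 4 had more length in hypoxia over all classes. EDC3, an mRNA decapping factor gene, had 4710 bp of intron peaks in normoxia and none in hypoxia, yet 96.6% of that length was under hypoxia peaks, and over all classes it had 5479 bp and 15961 bp. SLC7A5, which encodes a transporter of large neutral amino acids, had 7382 bp and 3935 bp in introns but 10448 bp and 20769 bp in all. FGFR3, an FGF receptor gene active in lens differentiation, had 13080 bp and 6981 bp in introns, and 27709 bp and 34767 bp in all, where a hypoxia peak of 11457 bp was assigned to an exon. The plakophilin gene PKP4 had 6273 bp and 2419 bp in introns, and 7408 bp and 10842 bp in all. The phosphatase gene PPM1F alone of the 5 was also shorter in all, at 5952 bp and 5146 bp.

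In distal intergenic sequence, as in introns, a peak is named for the gene with the nearest TSS, which need not be the gene it acts on. The longest hypoxia coverage was assigned to ARID1B, a subunit gene of the SWI/SNF chromatin remodeler, with 14528 bp in 17 peaks in normoxia and 39054 bp in 33 peaks in hypoxia, from 9.7 kb to 351.1 kb away. Its ratio of 2.69 was below that of the lists. MYC, a growth and immediate early transcription factor gene, had 3902 bp in 10 distal peaks and 21805 bp in 27, a ratio of 5.59, with 51.0% of the normoxia length under hypoxia peaks. MYC had a promoter peak in hypoxia only, of 2023 bp, whereas H3K4me3 covered its promoter in both lists, at 5477 bp and 7726 bp.

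SOX2, a factor of lens and neural specification, had 8817 bp in 12 distal peaks and 20610 bp in 23, and 66.3% of its normoxia length was under hypoxia peaks. Its ratio of 2.34 was below that of the lists, and neither list gave SOX2 an H3K27ac promoter peak although H3K4me3 covered 32332 bp and 32256 bp there. SIPA1L1, a GTPase-activating protein gene, had 5116 bp and 21312 bp, a ratio of 4.17. ADGRL3, a latrophilin receptor gene, had 5901 bp and 21591 bp, a ratio of 3.66. These ratios lay above 3.34, as did that of PLCL1 (3.43), a phospholipase-like gene with 6373 bp and 21863 bp.

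BASP1, which encodes a membrane-bound cytoskeletal regulator, had 7300 bp and 22254 bp of distal peaks, and the relaxin family receptor gene RXFP2 7789 bp and 21562 bp. SLC24A3, an exchanger gene for sodium, potassium and calcium, had 5946 bp and 19602 bp, of which 1 hypoxia peak wholly under H3K4me3 made up 11205 bp. PTPRC, which encodes the leukocyte antigen CD45, was assigned 5579 bp and 18603 bp, all at 80.7 kb or more from its TSS in hypoxia, and had no promoter peak in either list. Its ratio was 3.33, just below that of the lists.

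The distal differences towards normoxia were small. CDC37L1, a co-chaperone gene on chromosome Z, had 6203 bp in 8 peaks and 2306 bp in 1. YWHAH, a 14-3-3 gene like YWHAG, had 4131 bp and 1429 bp. TBC1D2B, a Rab GTPase-activating protein gene, had 2422 bp and 210 bp with no shared base. POLB, a DNA repair polymerase gene, and SLC6A6, the taurine transporter gene, had 3623 bp and 2731 bp in normoxia and no distal peak in hypoxia. Over all classes SLC6A6 and YWHAH were longer in hypoxia, at 6463 bp and 11614 bp and at 10316 bp and 15339 bp, while CDC37L1, POLB and TBC1D2B were shorter.

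**Figure D4:**
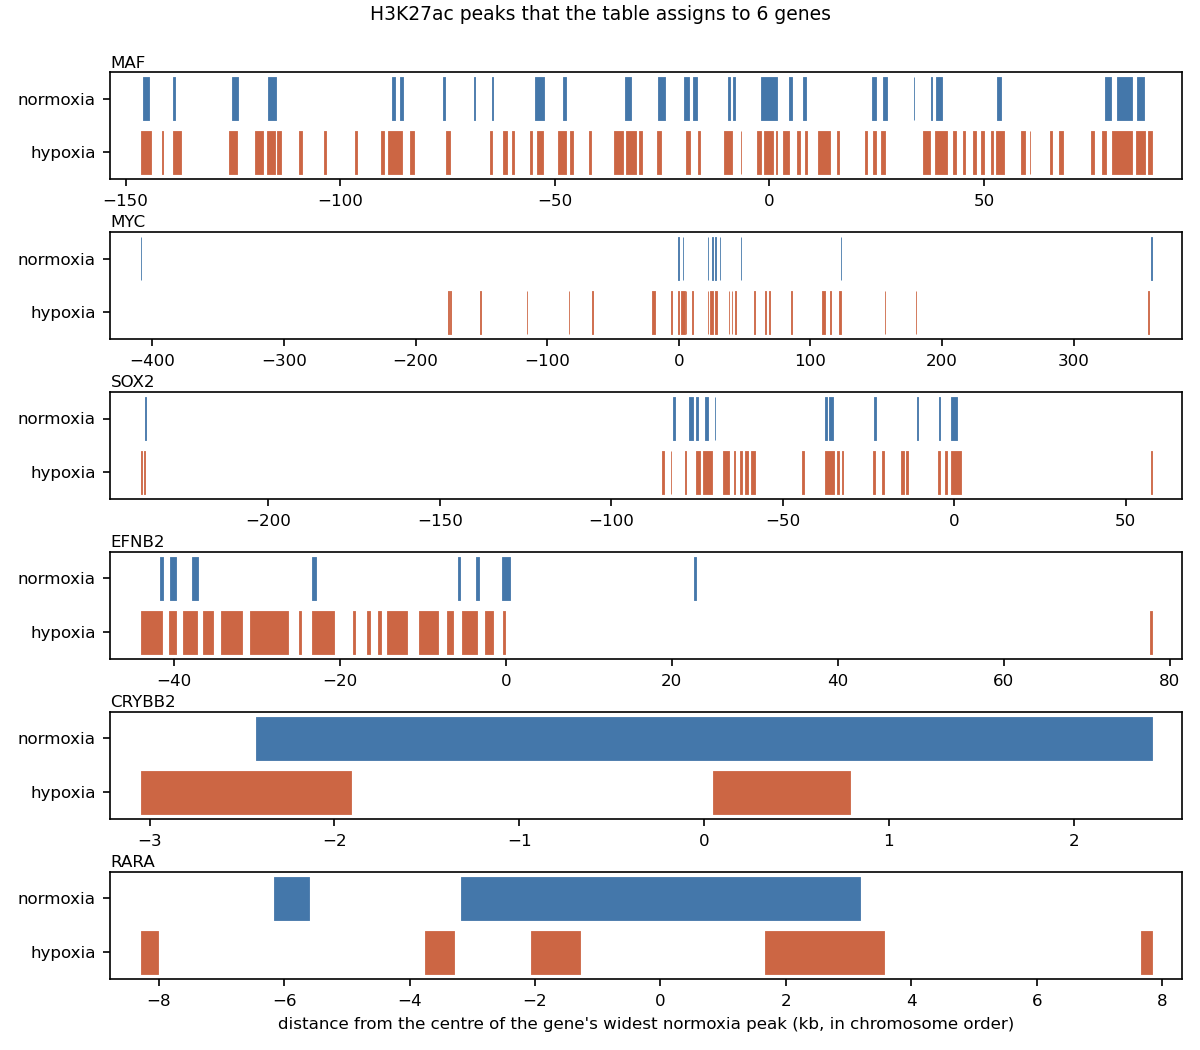
H3K27ac peaks assigned to 6 genes in normoxia (blue, upper row) and hypoxia (red, lower row), drawn to scale against the distance in kb from the centre of the gene's widest normoxia peak. Hypoxia peaks fill gaps between normoxia peaks at MAF, MYC, SOX2 and EFNB2, and 1 wide normoxia peak is opposed by shorter hypoxia peaks at CRYBB2 and RARA.

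Summed over all classes, the most added length lay at ARID1B (16682 bp and 52217 bp), FGFRL1 (33531 bp and 68589 bp), MAF (32248 bp and 65810 bp) and SPTBN1, the gene of the beta spectrin of the membrane skeleton (10294 bp and 43262 bp). They were followed by TBL1X, a corepressor subunit gene (14922 bp and 44665 bp), and by MAGI2. KLF9, a zinc finger factor gene on chromosome Z, had 21798 bp and 49253 bp, all at 43.8 kb or more from its TSS. None of this length was at its promoter or in distal sequence. The widest KLF9 peak of each list lay upstream of the TSS, in sequence classed as exon. These peaks are named for KLF9 by the nearest TSS and need not lie in the gene itself. QKI, an RNA-binding protein gene, had 5071 bp and 32064 bp. CDH2 and KIAA1217 completed the 10. Only MAGI2, QKI and SPTBN1 among these 10 had ratios above 3.34, at 7.05, 6.32 and 4.20, so the other 7 were lower in hypoxia relative to list length.

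The largest sums towards normoxia were at FAIM2, an inhibitor gene of Fas signalling (7043 bp and 1889 bp), the filamin-binding gene FBLIM1 (5628 bp and 1793 bp), RARA and FAM45A (3068 bp and none). Of the normoxia length of FAIM2 and FBLIM1, 43.4% and 79.5% was under hypoxia peaks, more bases than either gene was assigned in hypoxia. Part of that length is thus listed for other genes in hypoxia. The share under hypoxia peaks was 33.3% for RARA and 15.7% for FAM45A. The FAM45A peak was also assigned to a second gene. SIX3, a homeobox factor gene needed for lens formation, was the fifth. It had 11635 bp in normoxia and 8639 bp in hypoxia, of which distal peaks made up 3780 bp and 7268 bp and the other classes 6346 bp and 854 bp.

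Gene groups by role were compared as sums over their members in each class, beside the same calls over all genes. Of 562 symbols on 28 lists, 487 are named in the table and 458 have an H3K27ac peak. Over all classes 7 of the 22 role lists had ratios above 3.34 and 15 had not, with a range from 1.64 to 5.21. At promoters 8 lists, in introns 9 and in distal sequence 15 were above it.

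**Figure D5:**
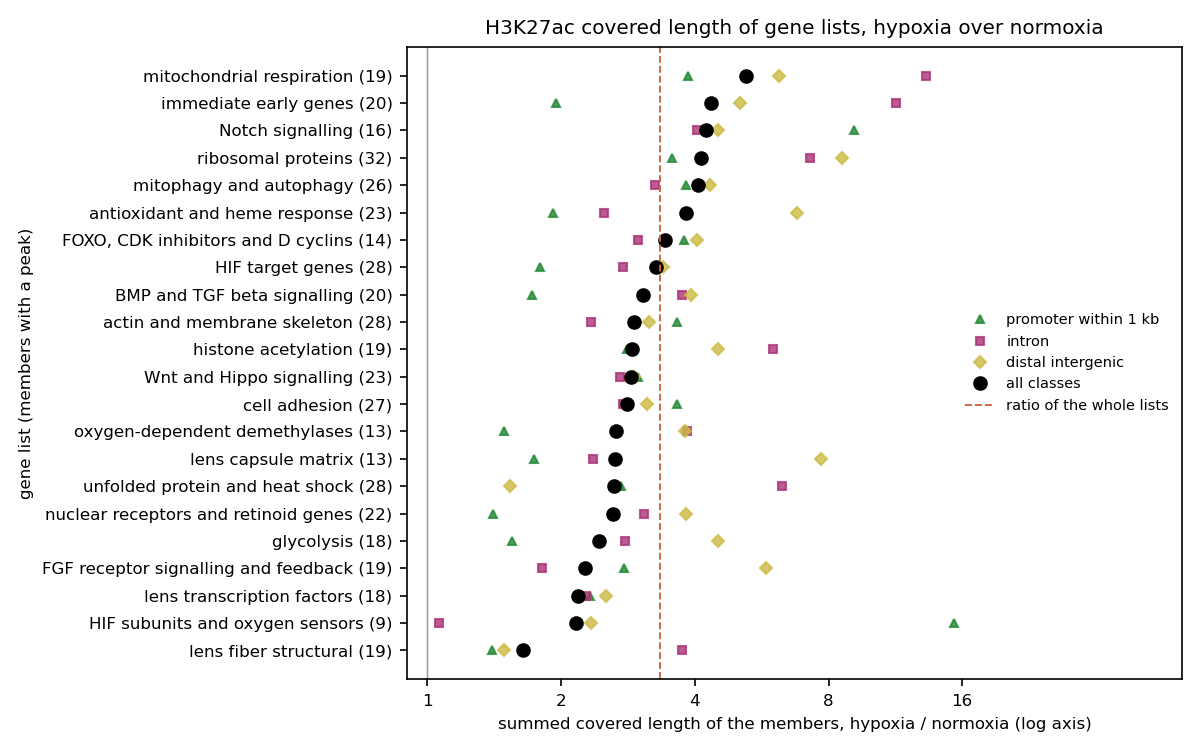
Ratio of hypoxia to normoxia covered length (log axis), summed over the members of each gene list, for all classes (black) and for promoter, intron and distal peaks; the dashed line is the ratio of the whole lists. Fiber structural genes have the lowest ratio over all classes and mitochondrial respiration the highest, and the classes of 1 list can lie on both sides of the line.

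The structural genes of fiber cells had the lowest ratio of the role lists over all classes. Their 19 members with a peak summed to 80.0 kb (normoxia) and 131 kb (hypoxia), a ratio of 1.64 that is above 1 but below that of the lists. Promoters carried most of the length, with 43.4 kb and 60.7 kb, a ratio of 1.40. The distal ratio was 1.49, while the intron ratio of 3.75, from 2.41 kb and 9.05 kb, was above that of the lists. That intron ratio rests on TDRD7, which held 525 bp and 7285 bp of this length. Only 1 of the 6 members with intron peaks had them in both lists. The fiber marker list used below, which leaves out TDRD7, had 1.89 kb and 1.77 kb in introns, a ratio of 0.937. At promoters 6 of 18 members (33.3%) were called higher and 1 lower, against 53.2% and 7.09% of all genes. The median log2 ratio over all classes was 0.73 in the 18 members with peaks in both lists, against 1.53 for all genes with both.

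At the promoter, CRYAA, the gene of the chaperone alpha A-crystallin, had 3467 bp and 3451 bp, nearly the same length, and 4859 bp and 5360 bp in distal peaks. MIP, the gene of the fiber cell aquaporin, had 3163 bp and 1675 bp, all at the promoter. BFSP1, which encodes the beaded filament protein filensin, had 2847 bp and 1970 bp at the promoter but 2357 bp and 3726 bp in distal peaks. CRYBB1 and CRYBA4, adjacent beta-crystallin genes, shared 1 hypoxia peak of 7878 bp on chromosome 15 (7464969 to 7472846), set against 1053 bp and 974 bp of normoxia promoter peaks. Without peaks assigned to several genes, CRYBB1 was 295 bp shorter in hypoxia, so its direction rests on that peak. TDRD7, an RNA granule gene whose loss causes cataract in humans, had 525 bp and 7285 bp in introns, a ratio of 13.9. It lies on chromosome Z, where all H3K27ac intron length had a ratio of 5.92.

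Lens transcription factors covered 147 kb and 320 kb, a ratio of 2.18, below that of the lists in every class (2.32, 2.27 and 2.53 for promoter, intron and distal). In distal sequence 12 of 14 members (85.7%) were called higher, against 56.1% of all genes, while 8 of the 14 had ratios above that of the lists (background 73.0%). PROX1, a homeobox factor of fiber differentiation, had 15402 bp and 15217 bp in introns and 5884 bp and 14966 bp in distal peaks. ZEB2 had 4185 bp and 14667 bp in distal peaks. PAX6, the eye master regulator, had a promoter peak in hypoxia only (2852 bp) and 6597 bp and 16552 bp over all classes, a ratio of 2.51.

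The FGF group covered 56.4 kb and 128 kb, a ratio of 2.26, and FGFR3 held 27709 bp of the normoxia length. SPRED1, an inhibitor gene of RAS-MAPK signalling, had no H3K27ac in normoxia and 17 peaks over 19853 bp in hypoxia, while H3K4me3 covered 15660 bp and 21911 bp of its locus. GAB1, a docking protein gene of receptor kinases, had 316 bp and 6944 bp. The BMP and TGF beta group had a ratio of 3.05. There BAMBI, a decoy receptor gene, had 1043 bp and 7134 bp, and the receptor genes BMPR2 and TGFBR2 had 1019 bp and 7272 bp and 2574 bp and 8531 bp. The TGFBR2 normoxia peak lay 310.6 kb from its TSS, and no TGFBR2 hypoxia peak lay nearer than 22.8 kb. At promoters 4 of 17 members of this group (23.5%) were called higher, against 53.2% of all genes, and in introns 11 of 15 (73.3%) against 56.0%.

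The Notch group had 14.4 kb and 61.1 kb, a ratio of 4.24, with 14 of 16 members (background 65.3%) above the list ratio. Its members with a peak covered means of 0.900 kb and 3.82 kb. All genes with 2 to 5 kb summed over both lists had a ratio of 4.27, about that of the group. Its promoters covered 1.37 kb and 12.5 kb, and 7 of 10 members with a promoter peak had it in hypoxia only, against 50.1% of all genes. HES1 and HEY2, transcriptional repressor genes that Notch activates, had no promoter peak in normoxia and 2909 bp and 2702 bp in hypoxia. H3K4me3 covered the HEY2 promoter over 3734 bp and 4731 bp. RBPJ, the DNA-binding partner of Notch, had 2275 bp and 7936 bp, all in introns. The Wnt and Hippo group had a ratio of 2.87. Its beta-catenin gene CTNNB1 covered 1354 bp and 6216 bp at the promoter, TEAD1, a partner of YAP, covered 7296 bp and 18664 bp in all, and the receptor gene FZD1 5452 bp and 12491 bp.

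For HIF subunits and oxygen sensors, the classes went apart. The promoters of 7 members summed to 0.636 kb and 9.73 kb, a ratio of 15.3, and all 7 were above the list ratio (background 61.3%). Of these 7, 5 had promoter peaks in hypoxia only (background 50.1%) and count as above without a ratio. The normoxia promoter sum came from the other 2. The introns of the group summed to 6.41 kb and 6.79 kb, a ratio of 1.06, and its distal ratio was 2.34. Over all classes the group ratio was 2.16, below that of the lists. There 6 of 9 members (66.7%) were called higher, against 67% of all genes. ARNT, the partner subunit of HIF alpha, had 2667 bp of promoter peaks in hypoxia only. EGLN3, the oxygen sensor that is itself a HIF target, had 366 bp and 2593 bp in introns and 2196 bp and 6986 bp in distal peaks. A distal hypoxia peak of 5304 bp on chromosome 5 (36005554 to 36010857) contained the widest EGLN3 normoxia peak. EGLN1, the main oxygen sensor, was listed in hypoxia only, with 2030 bp. HIF1A, chosen after its values were seen, had 380 bp and 3213 bp at the promoter, 5720 bp and 3016 bp in introns and 10479 bp and 9584 bp in all, so its sum was slightly shorter in hypoxia. HIF1A thus held most of the group's normoxia length in introns (6.41 kb) and over all classes (14.5 kb). The group ratios of 1.06 and 2.16 therefore rest largely on this 1 gene and do not describe the other members.

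HIF target genes covered 41.3 kb and 135 kb, a ratio of 3.27, near that of the lists, and 19 of 28 (67.9%) were called higher against 67.0% of all genes. Their promoters had a ratio of 1.80 and their distal peaks 3.39. VEGFA, the gene of the main angiogenic growth factor, covered 1766 bp and 11803 bp, a ratio of 6.68. Its distal length was 1596 bp and 1418 bp, and its intron peaks, 3115 bp, were in hypoxia only. Most of the VEGFA hypoxia length was in the other classes, at 170 bp and 7010 bp. These include a hypoxia peak of 4445 bp, wholly under H3K4me3, whose listed distance from the TSS was 4489 bp. BNIP3L, a mitophagy receptor gene needed for organelle loss in the lens, had 1604 bp and 10241 bp, a ratio of 6.38, with no peak within 1 kb of the TSS in either list. PFKFB3, which encodes an activator of glycolysis, had 2236 bp and 8814 bp in distal peaks.

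The glycolysis group had a ratio of 2.44, with promoters at 1.55. ENO1, the enolase gene, had 751 bp and 5609 bp, all distal, and the hexokinase gene HK1 3075 bp and 7026 bp. SLC2A1, the glucose transporter gene, and GAPDH were chosen after their values were seen. SLC2A1 had 3228 bp of promoter peaks in normoxia only, but a hypoxia peak placed between 1 kb and 2 kb covered 83.4% of its widest normoxia peak, and its sums were 6443 bp and 7296 bp. GAPDH had 1850 bp and 235 bp over all classes.

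Mitochondrial respiration had the highest ratio of the role lists over all classes, 9.81 kb and 51.1 kb, or 5.21. Of its 19 members 16 (84.2%) were called higher against 67.0% of all genes, and 15 were above the list ratio (background 65.3%). Promoters accounted for 6.91 kb and 26.6 kb. The complex I genes NDUFS1 and NDUFA4 had 369 bp and 3720 bp and 1300 bp and 2338 bp at the promoter. COX7C, of complex IV, had 368 bp and 1537 bp at the promoter and 4016 bp of distal peaks in hypoxia only. COX7C lies on chromosome Z, where all H3K27ac length had a ratio of 5.86. The normoxia sum of this group was the lowest of the 22.

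Mitophagy and autophagy genes had a ratio of 4.06, with 20 of 26 (76.9%) called higher against 67.0% of all genes. Above the list ratio were 16 of the 26, a smaller share than the background of 65.3%. PIK3C3, the class III lipid kinase of autophagosome formation, had 696 bp and 9585 bp and also lies on chromosome Z. WIPI1, which binds its lipid product, had 579 bp and 4797 bp at the promoter and 2747 bp and 739 bp in introns. Ribosomal protein genes had a ratio of 4.13, and 22 of 30 (73.3%) were called higher at promoters against 53.2% of all genes. At promoters 17 of the 30 were above the list ratio, a smaller share than the background of 61.3%. RPL7 covered 863 bp and 6772 bp at the promoter and RPS3 732 bp and 3537 bp, and RPS24 had 164 bp and 4963 bp in distal peaks.

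Immediate early genes had a ratio of 4.35 over all classes, 5.06 in distal sequence and 1.95 at promoters. At promoters 3 of 13 (23.1%) were called higher and 5 lower, against 53.2% and 7.09% of all genes. Distal sequence was called higher at 9 of 11 (81.8%), against 56.1%. MYC made up 21805 bp of the 49.5 kb of hypoxia distal length. The others with long distal coverage were ZFP36L2, an mRNA decay factor gene (1928 bp and 8512 bp), and the zinc finger factor gene KLF6 (2019 bp and 8877 bp). JUND, IER5, DUSP5, BTG1 and BTG2, named here as the 5 lower calls and therefore after their values were seen, had between 512 bp and 1111 bp of promoter peaks in normoxia, and all but BTG1 (328 bp) had none in hypoxia.

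The group of FOXO factors, CDK inhibitors and D cyclins had a ratio of 3.42. FOXO3 had 3348 bp and 12090 bp in introns, and the kinase gene CDK6 5070 bp and 11907 bp. CDKN1B, which encodes the cell cycle inhibitor p27, had 520 bp and 3144 bp at the promoter and 2082 bp and 9322 bp in distal peaks.

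Structural and adhesion groups were below the list ratio over all classes, at 2.92 for the actin and membrane skeleton and 2.82 for cell adhesion, but above it at promoters, at 3.64 and 3.65. ANK3, which encodes an ankyrin, had 1377 bp and 5217 bp at the promoter and 7871 bp and 29028 bp in all. The unconventional myosin gene MYO6 had 6532 bp and 22539 bp in all. ARVCF, a catenin gene of the cadherin complex, had 13686 bp and 27301 bp in introns. The lens capsule group had a ratio of 2.64, with promoters at 1.74 and distal peaks at 7.71. In distal sequence 6 of 6 members were called higher, against 56.1% of all genes. At promoters 2 of 11 (18.2%) were called higher and 3 lower, against 53.2% and 7.09%. The collagen IV gene COL4A2 had 1474 bp and 7837 bp of these distal peaks, and the laminin genes LAMA5 and LAMC1 had 3993 bp and 10724 bp and 3870 bp and 7150 bp in introns.

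Among the enzymes of histone acetylation, the ratio was 2.88, with introns at 6.00. CREBBP, which encodes the H3K27 acetyltransferase CBP, had 280 bp and 7392 bp in introns. HDAC9 and HDAC2, deacetylase genes, had 4433 bp and 15105 bp and 1461 bp and 8003 bp in all. The oxygen-dependent demethylases had a ratio of 2.66. TET2, a DNA hydroxylase gene, had H3K27ac in hypoxia only (8344 bp), while H3K4me3 covered 42065 bp and 45939 bp of its locus. KDM4B had 1640 bp and 9734 bp, and JMJD1C 3499 bp and 10261 bp.

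Nuclear receptors and retinoid genes had a ratio of 2.61 over all classes and 1.40 at promoters. RORA had 381 bp and 8793 bp in introns, and ESRRG 589 bp and 4930 bp. The unfolded protein and heat shock group had a ratio of 2.63. There CANX, an endoplasmic reticulum chaperone gene, had 199 bp and 4107 bp at the promoter. EIF2AK3, which encodes the stress kinase PERK, had 194 bp and 2628 bp. HSF4, the heat shock factor of the lens, had promoter H3K27ac in hypoxia only (3877 bp).

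The antioxidant and heme group had a ratio of 3.83 over all classes, 1.92 at promoters and 6.78 in distal sequence. GCLM, a subunit gene of glutathione synthesis, had 5284 bp and 13145 bp in introns and 9394 bp and 30349 bp in all. BACH2 had 1012 bp and 8731 bp in distal peaks. SOD2, the mitochondrial superoxide dismutase gene, had 6253 bp in hypoxia only.

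Markers were used to check the fiber cell label. The 16 fiber markers with a peak summed to 70.8 kb (normoxia) and 106 kb (hypoxia). Markers of other cells, which are fewer, summed to 17.9 kb and 48.3 kb for 7 of lens epithelium, 0.881 kb and 7.50 kb for 5 of retina and neurons, 0.578 kb and 2.59 kb for 5 of mesenchyme, and 1.96 kb and 8.75 kb for 3 of pigment epithelium. The 5 of blood and endothelium summed to 9.49 kb and 23.7 kb, mostly the distal length assigned to PTPRC. The only marker among them with a promoter peak was TIE1, with 2246 bp in normoxia only and no base of it under hypoxia peaks. Per marker with a peak, fiber markers covered a mean of 4.42 kb and 6.60 kb and epithelial markers 2.55 kb and 6.90 kb, so fiber markers were longer in normoxia but not in hypoxia. PAX6, PDGFRA (3876 bp and 8449 bp) and JAG1 made up most of the epithelial sum, and 4 of these 7 markers (PAX6, JAG1, CDH1 and SPARC) stand on a role list as well. GJA1, a connexin gene of the epithelium, was listed in hypoxia only, with 7007 bp. All 5 epithelial markers with promoter peaks had them in hypoxia only, against 50.1% of all genes with a promoter peak. In introns 0 of 3 epithelial markers were called higher, against 56.0% of all genes. Over all classes 5 of 7 (71.4%) were called higher and 1 lower, against 67.0% and 2.67%. Only 2 of the 7 were above the list ratio (background 65.3%). Ratios were 2.70 for epithelial, 8.52 for retinal, 4.48 for mesenchymal and 4.47 for pigment markers, beside 3.34 for the lists. They were 2.49 for blood and endothelium and 1.49 for fiber markers. The part of other cell types in the differences above was not tested.

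The lower ratio of fiber genes was compared with that of genes of like total coverage. The ratio of summed lengths was smaller in genes with more H3K27ac overall. Genes with 2 to 5 kb summed over both lists had a ratio of 4.27, those with 5 to 10 kb 3.30, those with 10 to 20 kb 2.82 and those above 20 kb 2.45. In the same ranges the fiber structural genes had 1.48 (4 genes), 1.49 (5 genes), 1.80 (6 genes) and 1.55 (3 genes). The median log2 ratio of genes in both lists did not fall steadily over these ranges, at 1.69, 1.75, 1.59 and 1.35 for all genes. For the fiber genes the medians were 0.75, 1.01, 0.73 and 0.31. They lay below all genes in each of these ranges by both measures, with no test between them. The ranges are cut on the sum of both lists, which includes the hypoxia length of the ratio. The list compared is the one with the lowest ratio of the 22. Whether total coverage accounts for that ratio was not tested. The 7 role lists with ratios above 3.34 were not split by coverage in this way. Their ratios, from 3.42 (FOXO, CDK inhibitors and D cyclins) to 5.21 (mitochondrial respiration), lay on both sides of the 4.27 of genes with 2 to 5 kb. Over all genes, ranges of up to 1 kb and of 1 to 2 kb had ratios of 5.29 and 4.94. Their medians were 0.31 and 1.06, so the median rose up to 5 to 10 kb. The second held 1 fiber gene.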

How the data were processed

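Peaks came from 1 deposited table, made by the authors, with 1 list of H3K27ac intervals per condition. Per the file headers it gives chromosome, start, end, nearest gene, TSS distance and class, and no score or count. Per the submitters' processing notes, the build was galGal6 and the tools included MACS2, ChIPseeker, STAR and DESeq2, without versions or roles. The sources used here do not give whether peaks were called per library or on pooled reads, nor the control and threshold, and a depth difference would move every covered length. The IgG libraries were not analysed here.

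Of 64273 H3K27ac lines, 3028 repeats of an interval were dropped. A peak assigned to several genes (463 peaks) counted for each. Coordinates are printed 1-based on 34 chromosomes. A count test had been planned for counts. The table holds none, so calls of at least 2-fold and 500 bp with no test replaced it. Results were computed with Python 3.11.15, pandas 2.3.3 and numpy 2.4.6. The covering code was tested on simulated peaks, and overlaps were checked against bedtools 2.31.1.

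The members and gene lists were chosen with earlier results of these data known. Named genes are, per class and over all classes, the 10 largest differences towards hypoxia and the 5 towards normoxia among genes with a symbol, 3 members per list, and VEGFA, EGLN3, BNIP3L, CDKN1B, MYC, PAX6, CRYAA, CRYBB1, MIP, BFSP1 and SOX2. Some genes chosen in this way are left out of the text. Others are said to be chosen after their values were seen. Symbols were matched exactly. An alternative counted as unchanged where a value moved by less than 1.5 times and kept its direction. Alternatives were scaling to equal list length, the widest hypoxia peaks only, width and call thresholds, wider promoters, overlap rules and leaving out peaks of several genes.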

Additional observations from a re-analysis of the deposited data

How the results depend on the processing

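The table gives 1 list per condition, so leaving out a library was not possible. No paired analysis was possible because the table holds no value per library. With each list scaled to its own total, the median log2 ratios of genes in both lists turned negative, at -0.84 for promoters, -0.39 for introns, -0.46 for distal peaks and -0.21 over all classes. These medians leave out genes in hypoxia only, whose length is part of the list total. The promoter ratio was then 0.848, the intron ratio 1.02 and the distal ratio 1.05. Genes called higher and lower were then 883 and 1331 at promoters, 659 and 495 in introns, 558 and 420 in distal sequence and 2480 and 1490 over all classes. With the hypoxia list cut to as many of its widest peaks as the normoxia list holds, intron and distal ratios were 2.06 and 2.00. Lower calls were then 908 at promoters, 454 in introns, 344 in distal sequence and 1049 over all classes, higher calls 1596 in introns, 1259 in distal sequence and 5473 over all classes, and 20.5% of the distal hypoxia length was shared. With peaks of at least 500 bp, 510 genes were called lower over all classes. With a difference of at least 1000 bp, higher and lower calls were 2570 and 202 at promoters, 1966 and 55 in introns and 1588 and 53 in distal sequence, and 113 genes were lower over all classes. Counted as whole peaks, 38.3% of hypoxia promoter peaks shared at least 1 bp, and overlap of at least 50% of the peak held for 6.26% of intron, 6.04% of distal and 7.88% of all hypoxia peaks. The cause of these shifts was not tested. A fold of at least 4 (8 counts of genes) and promoters within 3 kb (4 class values) moved no class value by over 1.5 times.

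Scaling reversed 46 of the gene differences, given here as scaled hypoxia minus normoxia bp. At promoters the value was CDH2 -247.8. In introns the values were MAF -8537.8, FGFRL1 -13519.4, KIAA1217 -3665.3, CDH2 -859.2 and SH3KBP1 -2223.4. In distal sequence they were ARID1B -2852.3, BASP1 -646.9, RXFP2 -1342.8, SLC24A3 -85.7, PTPRC -17.4 and SOX2 -2655.4. Over all classes they were ARID1B -1071.1, FGFRL1 -13025.5, MAF -12573.3, TBL1X -1568.8, KLF9 -7073.2, CDH2 -3318.6, KIAA1217 -4207.0, ZEB2 -1691.1, PROX1 -17528.6, FGFR3 -17315.0, TGFBR2 -23.5 and TEAD1 -1716.2. Further all-class values were CTNNB1 -363.4, FZD1 -1717.7, HK1 -974.5, WIPI1 -2026.2, CDK6 -1610.8, ARVCF -7920.1, LAMA5 -1820.2, LAMC1 -535.1, JMJD1C -431.3, CANX -148.0 and HSF4 -353.5. Further all-class values were GCLM -320.8, RPS3 -770.5, BFSP1 -4168.5, PAX6 -1648.6, PDGFRA -1350.1, PTPRC -351.9, CDH5 -57.3, DCN -31.0, MITF -206.4, CRYAA -8021.3 and SOX2 -2498.4. The ratios of 18 lists fell on the other side of 1 under scaling. They were 0.491 for lens fiber structural, 0.651 for lens transcription factors, 0.677 for FGF receptor signalling and feedback, 0.912 for BMP and TGF beta signalling, 0.858 for Wnt and Hippo signalling, 0.644 for HIF subunits and oxygen sensors, 0.976 for HIF target genes, 0.73 for glycolysis and 0.873 for actin and membrane skeleton. They were also 0.843 for cell adhesion, 0.789 for lens capsule matrix, 0.862 for histone acetylation, 0.794 for oxygen-dependent demethylases, 0.782 for nuclear receptors and retinoid genes, 0.787 for unfolded protein and heat shock, 0.446 for markers of lens fiber, 0.808 for markers of lens epithelium and 0.745 for markers of blood and endothelium. With the widest hypoxia peaks only, CDH5 (-640 bp), DCN (-391 bp) and MITF (-382 bp) reversed and the mesenchyme markers kept no hypoxia length, a ratio of 0. Without peaks assigned to several genes, CRYBB1 reversed (-295 bp).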

Other observations

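Genes without an H3K27ac promoter peak in either list (4854 genes) were also listed more often with intron and distal peaks in hypoxia. Intron peaks were listed at 15.5% of them in normoxia and 40.2% in hypoxia, and distal peaks at 17.7% and 45.7%. Distal peaks were in hypoxia only at 1474 of these genes and in normoxia only at 116. For all 12692 genes these numbers were 2798 and 235. The 4854 genes enter the comparison only through peaks outside promoters, and the hypoxia list holds more such peaks. The direction was therefore largely set by the choice of this group and the longer hypoxia list.

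The ratio of hypoxia to normoxia covered length was not the same on every chromosome. Chromosome Z covered 0.280 Mb in normoxia and 1.64 Mb in hypoxia, a ratio of 5.86, which is the highest of the 34 chromosomes. It was 5.55 for promoter, 5.92 for intron and 5.51 for distal peaks, and H3K4me3 on chromosome Z had a ratio of 1.11. Chromosomes 1 to 9 had H3K27ac ratios between 3.37 (chromosome 9) and 3.79 (chromosome 5). Ratios were lower on several of the smallest chromosomes, with 1.91 on chromosome 25, 1.38 on chromosome 30, 1.64 on chromosome 31 and 1.82 on chromosome 33. The lowest ratio of the 34, 1.25, was that of chromosome W, which covered only 0.00718 Mb and 0.00901 Mb. Among the genes named in the comparisons, CDC37L1, TRPM3, KLF9, TDRD7, PIK3C3 and COX7C lie on chromosome Z, with ratios over all classes from 0.710 (CDC37L1) to 17.6 (COX7C). ARNT lies on chromosome 25, and FAIM2 and MIP on chromosome 33.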
